A study of Mus musculus with 5 samples.

Results

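The 40 autosomal genes described here encode the transcription factors, signals and other regulators by which mouse embryonic stem cells hold or leave the pluripotent state, and fall into 13 naive, 11 general and 16 formative genes. Smarca4 peaks were assigned to a gene when they overlapped its body or the 10 kb on either side. Of the 78911 peaks in the 4 peak lists of the study, 103 lay near these genes, namely 33 near naive, 23 near general and 47 near formative genes. No peak fell in the windows of 2 of the genes.

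ChIP-seq for Smarca4 was done on mouse embryonic stem cells (mESCs) of both sexes, XX and XY, on day 4 of differentiation, begun by weaning the cells from 2i medium. The groups were Female Smarcc1 knockdown, Female Nons, Male Smarcc1 knockdown and Male Nons, with 1 ChIP library each, beside 1 input library of chromatin that was not immunoprecipitated. The knockdown cells carried the short hairpin named Smarcc1.6 against Smarcc1, a core subunit of the BAF remodelling complex, and Nons cells carried a non-silencing hairpin. The cells came from the Xmas mouse strains, which carry GFP and mCherry reporters at the X-linked Hprt gene, and the labels give the strain as C57/Bl6. With 1 library per group no difference has a replicate check, the intervals given are 95% intervals for counting error only, and the comparisons are between lists and not between conditions. Depth relative to the input was 5.99% for Female Smarcc1 knockdown, 11.6% for Female Nons, 14.2% for Male Smarcc1 knockdown and 21.8% for Male Nons, and the autosomal lists held 2726, 20953, 16707 and 38033 peaks in that order. The deepest library had the longest list and the shallowest the shortest, although Male Smarcc1 knockdown had fewer peaks than the shallower Female Nons. The part of depth in differences between lists cannot be told apart from that of sex or hairpin. The assay measures binding, so the identity of the cells could not be checked from expression.

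In mESCs a naive network built around Nanog, Klf and Esrrb factors is kept active by LIF and 2i medium. On its withdrawal these genes are shut down and formative genes such as Otx2, Fgf5 and Pou3f1 are switched on, while Pou5f1 and Sox2 stay expressed through the change. Smarca4 is the ATPase of the BAF complex, which slides and evicts nucleosomes, and in mESCs the complex works beside the pluripotency factors at enhancers and promoters. The comparison of naive with formative genes asks where Smarca4 is found once the cells are on their way out of the naive state.

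Parts of 4 peak regions are printed because they were nearest to a start site or were called in most lists. Capitals mark matches to the motifs described further on (Sox, Esrrb and Zic letters). All are on the plus strand of GRCm38, from the RefSeq copy of that assembly, and Sall4 is transcribed from the other strand. The Sall4 stretch (chr2:168755551-168755850) lies in a coding exon and the Tbx3 stretch (chr5:119670369-119670668) directly upstream of the gene. The Lef1 stretch (chr3:131110201-131110470) lies directly upstream of its gene and overlaps the non-coding transcript Gm43352. The Lefty2 stretch (chr1:180892951-180893107) ends at the base before the annotated start of the gene.
Sall4: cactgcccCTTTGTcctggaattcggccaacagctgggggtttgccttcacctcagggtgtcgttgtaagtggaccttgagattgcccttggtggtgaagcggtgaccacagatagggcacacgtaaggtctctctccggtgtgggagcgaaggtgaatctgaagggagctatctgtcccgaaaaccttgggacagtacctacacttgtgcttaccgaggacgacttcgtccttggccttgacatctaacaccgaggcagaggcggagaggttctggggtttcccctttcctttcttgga
Tbx3: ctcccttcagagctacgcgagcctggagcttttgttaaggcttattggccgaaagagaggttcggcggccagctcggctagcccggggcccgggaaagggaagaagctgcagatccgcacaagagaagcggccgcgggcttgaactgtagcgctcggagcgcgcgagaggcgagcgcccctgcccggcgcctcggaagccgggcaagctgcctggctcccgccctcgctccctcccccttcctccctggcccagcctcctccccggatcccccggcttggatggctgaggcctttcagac
Lefty2: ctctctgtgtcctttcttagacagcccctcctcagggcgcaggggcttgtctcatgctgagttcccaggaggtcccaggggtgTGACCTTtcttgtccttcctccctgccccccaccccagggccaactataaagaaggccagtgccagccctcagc
Lef1: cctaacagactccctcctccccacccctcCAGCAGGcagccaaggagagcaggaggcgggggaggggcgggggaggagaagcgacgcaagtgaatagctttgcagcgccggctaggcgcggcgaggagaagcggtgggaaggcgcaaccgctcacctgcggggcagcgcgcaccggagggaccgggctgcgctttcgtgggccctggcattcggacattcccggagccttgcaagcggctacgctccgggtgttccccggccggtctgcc

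In 1 of the 4 lists the naive to formative ratio of Smarca4 peak density had an interval that excluded 1. The intervals treat each peak as an independent count. Peaks cluster within long genes such as Lef1 and Esrrb, so the intervals are too narrow for a statement on the classes as sets of genes. In Male Nons, naive windows held 14 peaks, or 19.5 per Mb (exact Poisson interval 10.7 to 32.7), and formative windows held 30, or 49.3 per Mb (33.3 to 70.4). The ratio of naive to formative density was 0.395 (exact conditional interval 0.194 to 0.768). All autosomal coding genes had 24.9 peaks per Mb in this list, and the formative genes lay at 1.98 times this density (1.34 to 2.83) and the naive genes at 0.783 times (0.428 to 1.31). Lef1 alone held 13 of the 30 formative peaks. Without it, an alternative tried after the values were known, formative windows held 35.9 peaks per Mb, or 1.44 times the density over all genes, with an interval that includes 1 (0.839 to 2.31). Without Esrrb, which held 9 of the 14 naive peaks, naive windows were at 0.373 times (0.121 to 0.871). General genes stood with the formative ones, at 44.6 per Mb (24.4 to 74.8).

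In the other lists the naive to formative ratio could not be formed or its interval included 1. Female Smarcc1 knockdown had 0 naive and 0 formative peaks, so that no ratio exists. At its depth 0 peaks allow up to 4.18 per Mb in naive and 4.93 per Mb in formative windows by the limit of 3 counts, and the exact Poisson intervals reach 5.13 and 6.07 per Mb. All coding genes had 1.68 per Mb, so binding at either class was not detectable in this list rather than absent. In Female Nons naive windows held 13.9 peaks per Mb and formative windows 18.1, a ratio of 0.769 (0.293 to 2.00), against 13.4 per Mb over all coding genes. In Male Smarcc1 knockdown the values were 12.5 and 9.87 per Mb, a ratio of 1.27 (0.404 to 4.33), against 10.7 over all coding genes.

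**Figure D1:**
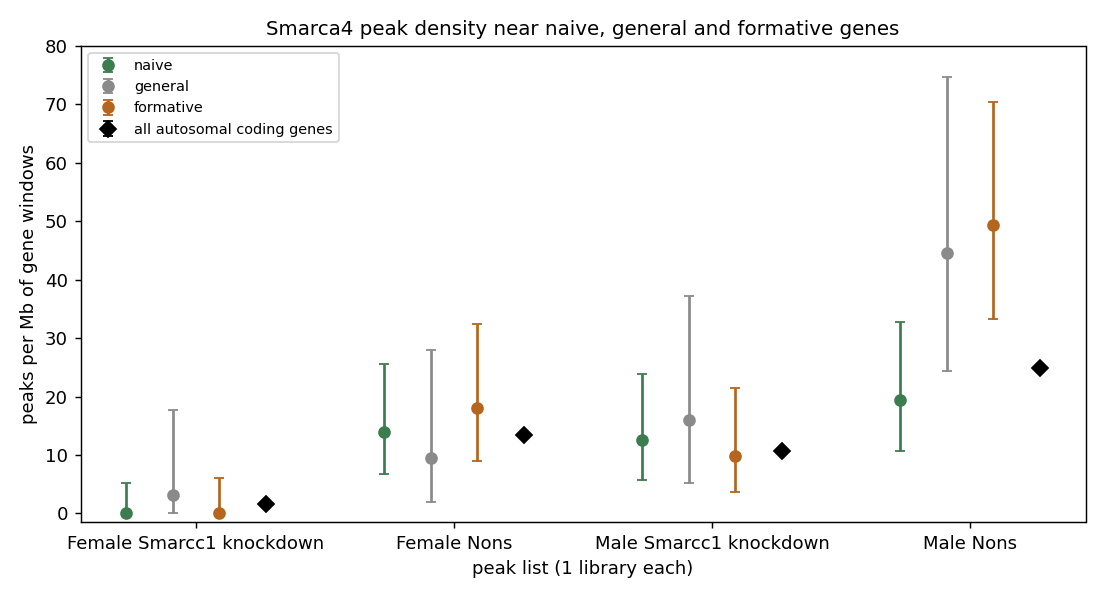
Smarca4 peaks per Mb of gene windows (gene body and 10 kb on either side) near naive, general and formative genes, with all autosomal coding genes as diamonds, in each of the 4 peak lists. Points are counts over window length and bars are 95% exact Poisson intervals. In Male Nons the naive genes sit at 19.5 per Mb and the formative genes at 49.3, and in the other lists the intervals of both classes overlap widely.

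The number of genes with a peak followed this order in Male Nons and not in every list. In Male Nons 4 of 13 naive and 12 of 16 formative genes had a peak, where 58.2% of the 20807 autosomal coding genes did. In Female Smarcc1 knockdown none of either class had one (11.1% of all genes), in Female Nons 6 naive and 7 formative genes (44.0%), and in Male Smarcc1 knockdown 4 and 4 (41.5%). The general genes gave 1 of 11 in Female Smarcc1 knockdown, 3 in Female Nons, 3 in Male Smarcc1 knockdown and 7 in Male Nons. Over all 40 genes the counts were 1 in Female Smarcc1 knockdown, 16 in Female Nons, 11 in Male Smarcc1 knockdown and 23 in Male Nons, which is 2.50, 40, 27.5 and 57.5%, below the share of all genes in each list. The windows of these genes were shorter, with a median of 28.6 kb against 37.6 kb over all coding genes. Among windows under 25 kb, 5 of 6 formative and 2 of 3 naive genes had a Male Nons peak, against 44.1% of all genes with such windows. Among windows of 25 to 40 kb these were 4 of 7 formative and 1 of 6 naive genes against 53.9%, and among longer ones 3 of 3 formative and 1 of 4 naive genes against 66.9%. Counts of genes were also taken with every list thinned to the shallowest depth, a count added once the data had been seen, and Male Nons then held on average 1.97 naive and 3.0 formative genes with a peak, and 7.20 of 40 (18%) against 20.4% of all genes.

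A measure that does not count peaks, also added after the data were seen, did not separate the classes. It used regions called in lists of other libraries. In Male Nons, reads over input were 5.03 at naive (4.15 to 6.04) and 6.0 at formative genes (4.89 to 7.28), after scaling to the depth of the input. Regions that overlap a peak of the library compared were kept, such as those at Tbx3, Lef1, Otx2 and Lefty2 for Male Nons. Its own reads helped to choose these, and no value without them was computed. All autosomal regions chosen in the same way gave 5.66. Every list was called against the same input, so low input reads also helped to choose all of these regions. The ratio of naive to formative was 1.76 (0.940 to 3.38) in Female Smarcc1 knockdown, 1.13 (0.842 to 1.51) in Female Nons, 0.886 (0.669 to 1.17) in Male Smarcc1 knockdown and 0.838 (0.636 to 1.11) in Male Nons. Without Esrrb and Lef1, the naive and the formative gene with most regions, the Male Nons ratio was 1.23 (0.852 to 1.79).

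Of the naive genes, 7 of 13 had a peak in any list, and 3 of them (Tbx3, Esrrb and Nr5a2) had one within 1000 bp of an annotated start site. Such start-site peaks were present at 1.89, 11.6, 11.7 and 23.0% of all coding genes in Female Smarcc1 knockdown, Female Nons, Male Smarcc1 knockdown and Male Nons. Among the 40 genes they numbered 1, 3, 6 and 12 in that order (2.50, 7.5, 15 and 30%). A region was listed because its own library held many reads there, so a high value in that library is a description only. Start sites of every annotated transcript were used, and several lie inside a gene.

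Tbx3, a T-box transcription factor of the naive network, carried the region with the most scaled reads near the 40 genes. This region, over its start (chr5:119670451-119671650), held 2 reads in Female Smarcc1 knockdown, 12 in Female Nons, 20 in Male Smarcc1 knockdown and 45 in Male Nons, and 23 in the input. It was the only region near these genes with 20 or more input reads, and it overlaps the antisense transcript Tbx3os1. The peak called there in Male Smarcc1 knockdown (chr5:119670301-119670900) held 1, 9, 16 and 30 reads in the same order of libraries, with 15 in the input. Male Smarcc1 knockdown had further peaks upstream, centred at -969, -1794 and -3444 bp from the start. The middle one of these held 4 reads in Female Smarcc1 knockdown, 4 in Female Nons, 16 in Male Smarcc1 knockdown and 6 in Male Nons, with 5 in the input, and that nearest the start held 0, 3, 15 and 10, with 13 in the input. Downstream of the gene both Nons lists called the identical region (chr5:119685601-119686050), with 3 reads in Female Smarcc1 knockdown, 8 in Female Nons, 4 in Male Smarcc1 knockdown and 12 in Male Nons, over 3 in the input. Tbx3 was thus called downstream in both Nons lists, and at its start in the male lists alone.

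Esrrb, an orphan nuclear receptor that sustains self-renewal, had 14 peaks spread over its long body, 2 in Female Nons, 3 in Male Smarcc1 knockdown and 9 in Male Nons, and no overlap between lists. The peak near an internal start site (chr12:86422501-86422950) held 1 read in Female Smarcc1 knockdown, 3 in Female Nons, 3 in Male Smarcc1 knockdown and 10 in Male Nons, with 7 in the input. An intronic peak of Female Nons (chr12:86426701-86427150), singled out after its values were seen, held 0, 11, 5 and 6 reads in that order over 0 in the input, the highest value over input near these genes.

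Nr5a2, a nuclear receptor that binds regulatory sequence of Pou5f1, had start-site peaks at internal starts only. That of Male Smarcc1 knockdown (chr1:136948501-136948950) held 10 reads there, against 0 in Female Smarcc1 knockdown, 2 in Female Nons and 4 in Male Nons, with 6 in the input. That of Female Nons (chr1:136953151-136953450) held 6 reads, against 1 in each of the other libraries and 6 in the input. Its reads equal in number those of the deeper input, and come to 51.6 when scaled to the input's depth. Tfcp2l1, a transcription factor downstream of LIF, had 3 peaks, all in Female Nons. Klf2 and Prdm14, transcription factors of the naive state, had 2 each, and Dppa3, a germline and oocyte factor, had 1. No list held a peak near Nanog, Klf4, Klf5, Zfp42, Dppa5a or Fbxo15.

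**Figure D2:**
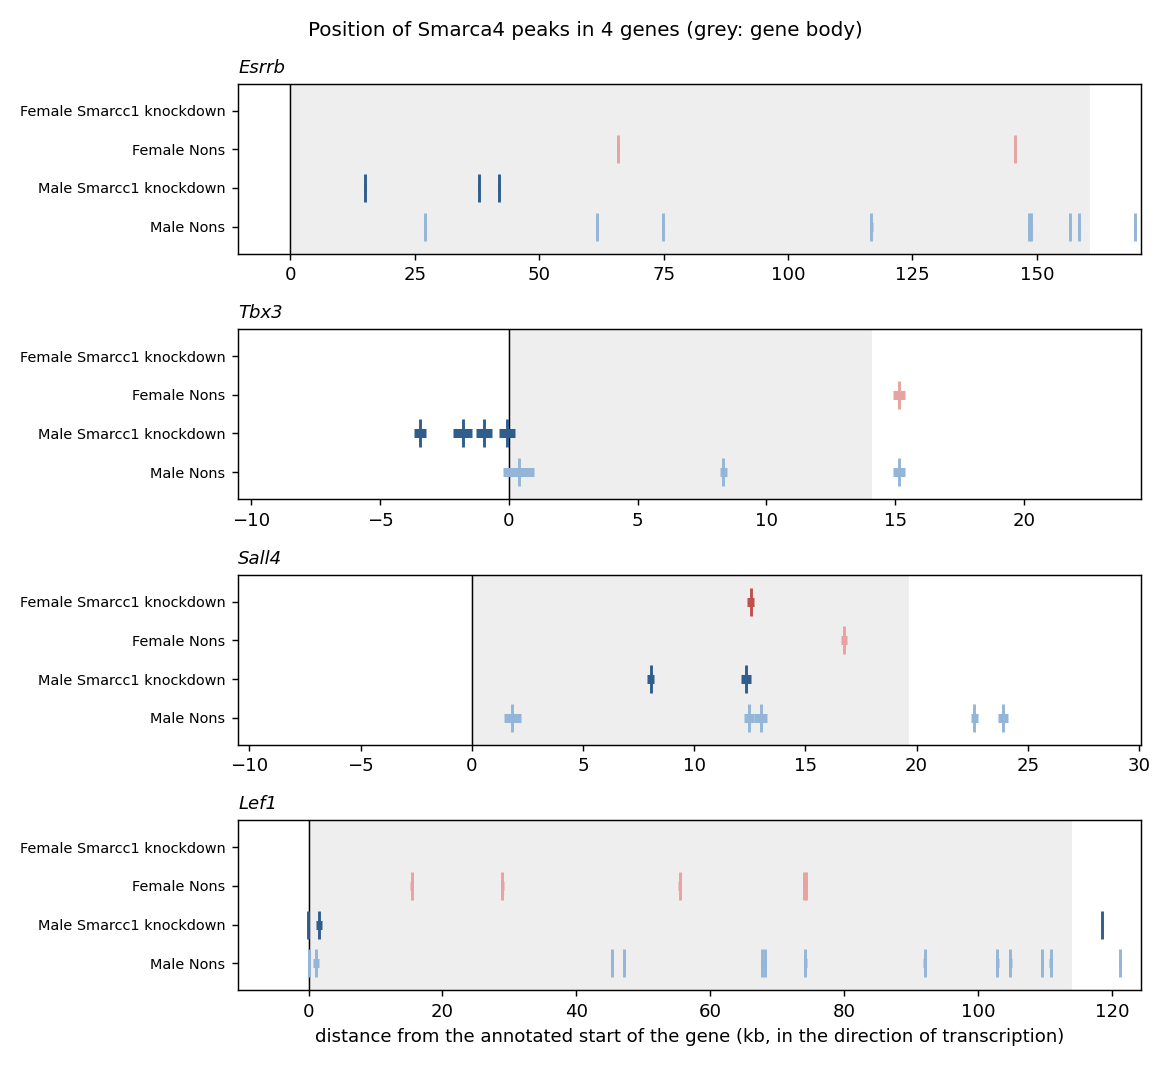
Positions of Smarca4 peaks along Esrrb, Tbx3, Sall4 and Lef1 in the 4 peak lists, in kb from the annotated start of the gene in the direction of transcription. Thick bars are peaks to scale, ticks are their centres and grey marks the gene body. Esrrb and Lef1 peaks spread through the body, 3 of 8 Tbx3 peaks are centred within 1000 bp of its start, all in the male lists, and 4 of 9 Sall4 peaks lie about 12.5 kb inside the gene.

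Of the general genes 8 of 11 had a peak and 6 had one at a start site. Sall4, a zinc finger factor of the Pou5f1 network, was the only one of the 40 genes with a peak in all 4 lists. Its Female Smarcc1 knockdown peak (chr2:168755251-168755550) lay in a coding exon, centred 12543 bp inside the gene and 393 bp from an internal annotated start. It held 5 reads in Female Smarcc1 knockdown, 3 in Female Nons, 5 in Male Smarcc1 knockdown and 6 in Male Nons, with 5 in the input. Peaks of Male Smarcc1 knockdown (chr2:168755401-168755850, with 3, 5, 10 and 8 reads in that order and 6 in the input) and of Male Nons (chr2:168755251-168755700, with 5, 4, 9 and 11 reads and 6 in the input) overlapped it. A Male Nons peak adjoined it (chr2:168754651-168755250), with 5, 8, 6 and 13 reads over 3 in the input. Scaled for depth, the 5 reads of Female Smarcc1 knockdown in this last region came to 83.5. The other values were 68.8 in Female Nons, 42.2 in Male Smarcc1 knockdown and 59.6 in Male Nons, so here Female Smarcc1 knockdown was not below them. The region adjoins that library's own peak, and 1 of its reads scales to 16.7, so this is a description only. A further Male Nons peak centred 1818 bp inside the gene (chr2:168765751-168766500) held 0, 4, 6 and 17 reads with 11 in the input.

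Pou5f1 and Sox2, the core pluripotency factors, each had a start-site peak in Male Nons and in no other list. The Pou5f1 region (chr17:35506201-35506800) held 2 reads in Female Smarcc1 knockdown, 4 in Female Nons, 2 in Male Smarcc1 knockdown and 15 in Male Nons, with 8 in the input. The Sox2 region (chr3:34651051-34651500) held 2, 1, 7 and 11 reads in that order with 10 in the input, within the non-coding gene Sox2ot. For Sox2 the scaled values of both male libraries were alike, 49.2 in Male Smarcc1 knockdown and 50.4 in Male Nons, although only the second was listed.

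Lin28a, which blocks let-7 maturation, held 1, 3, 2 and 12 reads over its start (chr4:134018251-134018850) in Female Smarcc1 knockdown, Female Nons, Male Smarcc1 knockdown and Male Nons, with 6 in the input, in a region shared with the transcript Gm13061. Utf1, a chromatin-bound factor of mESCs, held 0, 2, 6 and 7 reads with 5 in the input (chr7:139944751-139945050). Mycn, a Myc family oncogene, was the only general gene whose start-site peak was called in Male Smarcc1 knockdown and not in Male Nons. That region (chr12:12940051-12940500), centred 1639 bp inside the gene and 116 bp from an internal start, held 1, 0, 9 and 4 reads with 3 in the input, so male scaled values were 63.2 after knockdown and 18.3 in Nons. Tdgf1, the Nodal co-receptor Cripto, had 2 peaks in its flanks and Fgf4, the autocrine ligand that drives ERK signalling, had 1, and none lay at a start site. The flanking peaks of Pou5f1, Fgf4, Utf1 and 1 of those of Tdgf1 overlap the neighbours Tcf19, Fgf3, Kndc1 and Lrrc2. Gdf3, Dppa2 and Dppa4 had no peak in any list.

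Of the formative genes 13 of 16 had a peak, and 5 had one at a start site. Lef1, the nuclear effector of Wnt signalling, had the most peaks of the 40 genes, 5 in Female Nons, 3 in Male Smarcc1 knockdown and 13 in Male Nons. Over its start a Male Smarcc1 knockdown peak (chr3:131110201-131110500) held 0 reads in Female Smarcc1 knockdown, 1 in Female Nons, 7 in Male Smarcc1 knockdown and 6 in Male Nons, with 2 in the input. The Male Nons peak that overlaps it (chr3:131110351-131110650) held 0, 3, 6 and 7, with 2 in the input. About 1 kb further in, a Male Nons peak (chr3:131111101-131112000) held 0, 7, 10 and 22 reads and the overlapping Male Smarcc1 knockdown peak (chr3:131111551-131112450) held 0, 3, 19 and 17, each with 11 in the input. All 4 of these male peaks held no read in Female Smarcc1 knockdown.

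Inside the Lef1 gene a second cluster was called in both Nons lists and in neither knockdown list. The Male Nons peak over a coding exon (chr3:131184451-131184900) held 1 read in Female Smarcc1 knockdown, 8 in Female Nons, 2 in Male Smarcc1 knockdown and 17 in Male Nons, over 1 in the input. The 2 overlapping Female Nons peaks held 1, 7, 2 and 7 reads (chr3:131184301-131184600, 2 in the input) and 0, 6, 1 and 15 reads (chr3:131184601-131184900, 1 in the input). Because the cluster was defined by being listed in Nons alone, its low knockdown reads are not independent evidence of a loss.

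Otx2, a homeodomain factor that drives exit from the naive state, was called over its start in both male lists. The Male Nons region there held 0 reads in Female Smarcc1 knockdown, 5 in Female Nons, 12 in Male Smarcc1 knockdown and 17 in Male Nons, with 10 in the input, and the Male Smarcc1 knockdown region inside it held 0, 3, 11 and 11 with 9 in the input. Scaled for depth the larger region came to 84.3 in Male Smarcc1 knockdown and 77.9 in Male Nons. It also covers the starts of the antisense transcripts Otx2os1 and Gm49154, and reads cannot be assigned to one of these genes. A further Male Nons peak near an internal start (chr14:48666001-48666450) held 0, 5, 3 and 13 reads with 9 in the input.

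Lefty1 and Lefty2 are secreted inhibitors of Nodal, the ligand that with FGF promotes the formative state. Lefty2 was the only one of the 40 genes with a peak over its own start in both Nons lists. The Female Nons peak (chr1:180892951-180893400) held 0 reads in Female Smarcc1 knockdown, 8 in Female Nons, 6 in Male Smarcc1 knockdown and 10 in Male Nons, and the Male Nons peak within it (chr1:180893101-180893400) held 0, 7, 5 and 8, each with 5 in the input. The Lefty1 region (chr1:180934501-180934950) held 1, 1, 6 and 12 reads in that order, over 3 in the input. Nodal itself had 1 peak, in Female Nons and downstream, inside the neighbour Eif4ebp2.

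Sall2, a zinc finger paralogue of Sall4, had adjoining peaks in a coding exon near an internal start, in Female Nons (chr14:52314751-52315350, with 0, 9, 3 and 5 reads over 2 in the input) and in Male Nons (chr14:52315351-52315650, with 1, 1, 1 and 7 reads over 1 in the input). Pou3f1, a POU factor of the formative state, had 4 peaks, none at its start. Foxd3, a forkhead repressor, had 2, the ligand gene Fgf15 had 2, and Fgf5, Sox4 and the ERK-responsive ETS factors Etv4 and Etv5 had 1 each. Apart from 1 peak of Pou3f1 in Female Nons, 1 in Male Smarcc1 knockdown and 1 of Fgf15 in Female Nons, all of these were in Male Nons. Sox11, Zic2 and Zic5, transcription factors also used in neural development, had none.

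**Figure D3:**
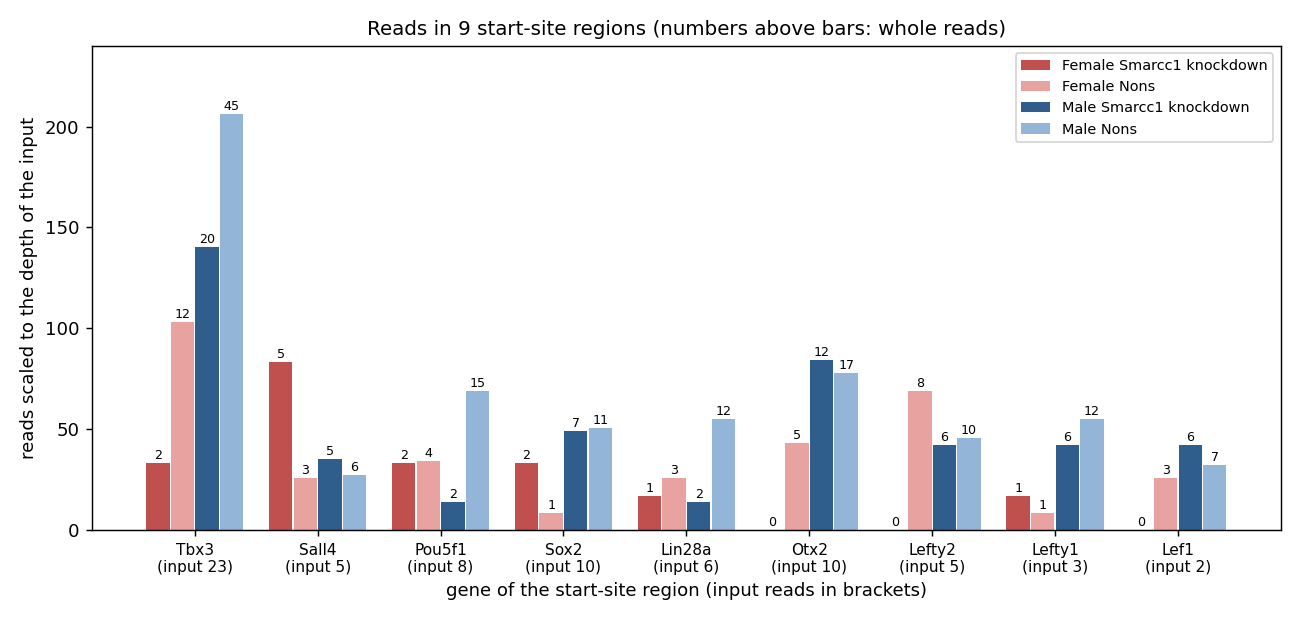
Reads scaled to the depth of the input (vertical axis) in 9 start-site regions, with whole reads above each bar and input reads under each gene name. The regions are a selection from the 14 genes with a start-site peak, each taken from the list of a library that called it. Most come from Male Nons and none from Male Smarcc1 knockdown, so high Male Nons values are a description only. Regions of Mycn, Nr5a2, Esrrb, Utf1 and Sall2 are not shown. Those of Mycn and Nr5a2 called in Male Smarcc1 knockdown held more reads there than in Male Nons. Tbx3 has the highest value, 45 reads in Male Nons, and Female Smarcc1 knockdown has 0 reads at Otx2, Lefty2 and Lef1 but 5 at the internal region of Sall4.

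Knockdown and Nons were then compared within each sex in regions called in the other sex, which the reads compared had not chosen. In females the 78 regions held 59 reads in Smarcc1 knockdown and 263 in Nons, a scaled ratio of 0.436 (0.323 to 0.580), where all 54681 autosomal regions chosen in this way gave 0.639 (0.632 to 0.645). Formative regions gave 0.297 (0.160 to 0.515), naive regions 0.331 (0.182 to 0.565) and general regions 0.766 (0.476 to 1.20). Knockdown was the lower of the female pair in 63 of 78 regions, against 66.9% of all regions, and held no read in 44 of 78 (56.4%), against 47.7% of all regions. The intervals treat overlapping regions, which share reads, as separate. The lower female reads at naive and formative genes therefore stand beside lower reads over all regions, and the difference of classes rests on 16 naive and 15 formative knockdown reads.

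The female values depended on the scaling. With libraries scaled by their reads in all listed regions, the female ratio was 0.779 (0.577 to 1.04) for the 40 genes and 1.14 over all regions, with formative regions at 0.531 (0.287 to 0.920) and naive regions at 0.591 (0.325 to 1.01). Without Sall4 the female ratio, scaled by depth, was 0.365 (0.257 to 0.507). Without regions also called in a female list it was 0.395 (0.282 to 0.543).

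In males no difference was seen. The 25 regions called in a female list held 75 reads in Smarcc1 knockdown and 114 in Nons, a scaled ratio of 1.01 (0.743 to 1.36), against 0.986 over 23621 autosomal regions. Naive regions gave 0.799 (0.467 to 1.34), formative regions 1.05 (0.679 to 1.6) and general regions 1.67 (0.675 to 4.18), the last from 23 reads. Knockdown was the lower of the male pair in 14 of 25 regions, against 49.7% of all regions. Differences within these intervals were not detectable at this depth. Whether the female and male ratios differ was not tested, since each rests on 1 library per arm and on other regions.

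**Figure D4:**
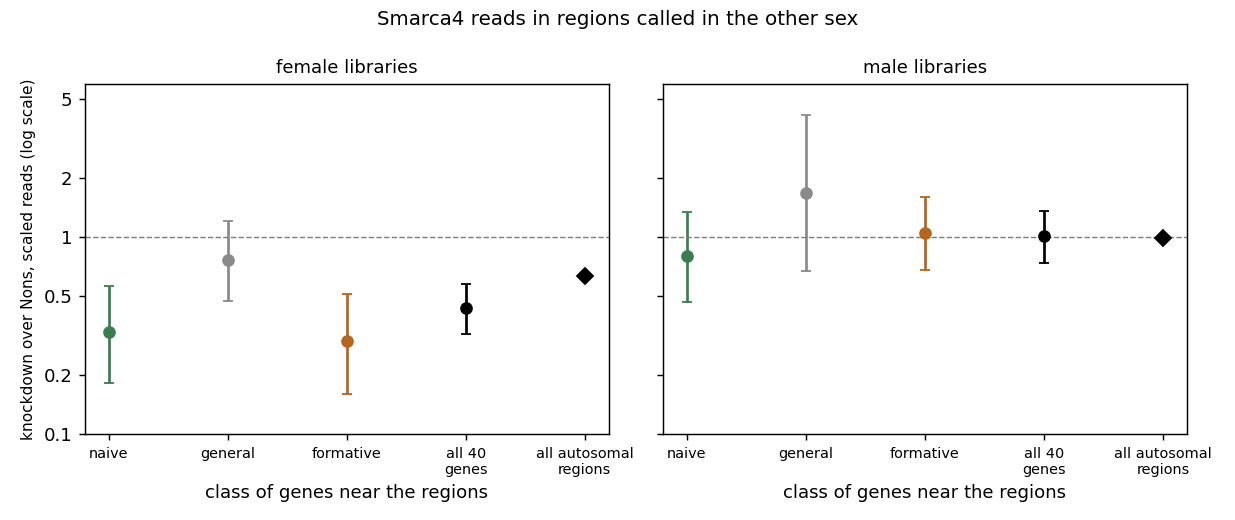
Scaled Smarca4 reads in Smarcc1 knockdown over Nons (log scale) in regions called in the other sex, for female libraries on the left and male libraries on the right, by class of gene. Points are ratios of summed reads and bars are 95% exact conditional intervals, with all autosomal regions as diamonds. The female values for naive (0.331) and formative genes (0.297) lie below that for all autosomal regions (0.639), and the male values scatter around 1.

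An additive fit of sex and hairpin over 77716 regions of all lists, with edgeR's quasi-likelihood test, called 0 regions for the hairpin and 0 for sex (Benjamini-Hochberg adjusted p below 0.05). Before adjustment 347 and 377 regions, or 0.446 and 0.485% of them, had a p below that threshold, and DESeq2 also called 0. Of the 102 member regions in the fit, 0 had an unadjusted p under 0.05 for the hairpin and 1 for sex, the Lef1 region at chr3:131111551-131112450. It was listed in the male libraries alone, so its lower value in females (log2 female over male -2.61 ± 1.07, SE) is a description, and its adjusted p in the edgeR fit was 0.999. Of the 103 member regions 82 came from Nons lists, which favours lower values in knockdown, so no median over the fit is read. The fit has 1 residual degree of freedom, and its 0 calls do not show that regions were alike.

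The sequences of the regions were searched on both strands for motifs of factors of the naive and formative networks. The octamer ATGCAAAT, which POU factors such as Pou5f1 and Pou3f1 recognise, was in 5 of 103 member peaks (4.85%) and in 0.931% of all 78419 autosomal peaks. It occurred in 2 peaks of naive genes (Klf2 and Tbx3) and 3 of formative genes (Etv4 and Lef1, the second in 2 peaks), and in 0 of 23 peaks of general genes. The AP-1 letters TGANTCA were in 15.5% of member peaks against 9.81% of all, with 8 of 33 naive, 4 of 23 general and 4 of 47 formative peaks. The other shares lay closer to those of all autosomal peaks. The Sox letters ACAAAG or ACAATG were in 32.0% against 34.5%, the Esrrb letters AAGGTCA in 8.74% against 7.5%, the Klf letters GGGNGTGG in 21.4% against 18% and the Zic letters CAGCAGG in 20.4% against 21.9%. These are matches of letters in windows of unequal length and not sites, and no test was made. Overlapping peaks of different lists were counted separately. The Tbx3 region that both Nons lists called, chr5:119685601-119686050, thus enters the naive AP-1 count from each list. Median GC content was 55.0% in member peaks and 54.3% in all, with 2.67 against 1.67 CpG per 100 bp.

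The stretches of 60 bases around the 5 octamer matches are printed because the octamer share stood furthest from the general share as a ratio. In percentage points the AP-1 share stood further, and these values were seen before the stretches were chosen. The octamer or its reverse complement is in capitals, on the plus strand of GRCm38. They lie at chr11:101778638-101778697 (an intron of Etv4), chr3:131139504-131139563 and chr3:131213169-131213228 (introns of Lef1), chr8:72311282-72311341 (upstream of Klf2) and chr5:119668652-119668711 (upstream of Tbx3).
Etv4, Male Nons: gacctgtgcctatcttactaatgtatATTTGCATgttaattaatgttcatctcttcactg
Lef1, Female Nons: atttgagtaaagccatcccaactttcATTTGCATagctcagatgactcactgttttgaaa
Lef1, Male Nons: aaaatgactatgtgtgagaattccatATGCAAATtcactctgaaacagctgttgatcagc
Klf2, Female Nons: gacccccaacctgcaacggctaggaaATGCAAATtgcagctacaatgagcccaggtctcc
Tbx3, Male Smarcc1 knockdown: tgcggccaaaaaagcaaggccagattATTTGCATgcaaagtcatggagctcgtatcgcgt

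Signals and co-regulators around both networks were counted from 2 further lists. Of 15 genes of naive signalling, 5 had a peak in Female Smarcc1 knockdown, 8 in Female Nons, 10 in Male Smarcc1 knockdown and 10 in Male Nons. Shares over all coding genes were 11.1, 44.0, 41.5 and 58.2% in that order. The genes with a peak included the LIF effector Stat3, the Wnt effector Ctnnb1 and the coactivator Ncoa3 in every list. Of 17 genes of the formative transition, 4, 12, 11 and 14 had one in that order, with the FGF receptor gene Fgfr2, the Nodal effector Smad3 and the Hippo effector Tead1 in every list and the DNA methyltransferase gene Dnmt3a in all but Female Smarcc1 knockdown. The 29 naive and formative genes themselves had no peak in Female Smarcc1 knockdown. In that list the share of all coding genes with a peak rose with window length, from 5.88% under 25 kb to 15.4% at 40 kb or more. Window lengths of the signalling genes were not compared, so no contrast between these sets of genes is drawn.

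Lineage genes were counted beside the same shares of all coding genes, 11.1, 44.0, 41.5 and 58.2%. Neural ectoderm genes had a peak at 0, 1, 4 and 4 of 4 genes in Female Smarcc1 knockdown, Female Nons, Male Smarcc1 knockdown and Male Nons. Mesoderm genes gave 0, 1, 6 and 6 of 6, endoderm genes 0, 3, 4 and 5 of 5, trophoblast genes 1, 4, 5 and 3 of 5, and housekeeping genes 0, 4, 3 and 5 of 8. More of the neural ectoderm, mesoderm and endoderm genes had a peak in both male lists than in Female Nons. Fewer housekeeping genes had one in Male Smarcc1 knockdown than in Female Nons, and fewer trophoblast genes in Male Nons. The part of list length and depth in these counts was not tested. The lineage and housekeeping lists hold few genes, and their part in the values of the 40 genes was not tested.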

How the data were processed

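Smarca4 ChIP-seq of 4 libraries and 1 input was analysed from 4 peak lists, 1 per ChIP library. Per the study's methods, trim_galore was used for trimming and bowtie2 for alignment to mm10 (a reporting form names tophat), and peaks were called against the input in Seqmonk after removal of duplicates. Tools named in the submitters' processing notes, with no version, were Bowtie2, MACS2 and bcl2fastq.

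The deposited ChIP values are a signal per region that the authors scaled to the depth of the input. All values (100%) were whole multiples of a step per library within 0.01 reads, so whole reads were recovered by division by steps of 16.7 (Female Smarcc1 knockdown), 8.60 (Female Nons), 7.03 (Male Smarcc1 knockdown) and 4.59 (Male Nons). The deposited input values are counts of reads. Peaks held 5, 7, 8 and 9 reads at the median in that order. Library totals were not used here. PCR reads are not independent molecules, so intervals cover counting error only.

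Genes and start sites came from GENCODE vM21, and windows were merged within a class before peaks per Mb were taken. Intervals on densities were exact Poisson and on ratios exact conditional (scipy 1.17.1). Recovered reads were fitted with edgeR 4.0.16 (R 4.3.3), without regions of 50 or more input reads, with DESeq2 1.42.0 as an alternative, and the scripts were tested on simulated data. In comparisons over all autosomal regions, those of 50 or more input reads were also left out. They were kept in the totals used to scale by reads in all listed regions. The 40 genes, their classes, the other gene lists and the motifs were chosen with earlier results of these data known. Reads in every library were given for genes with a peak within 1000 bp of a start site or overlapping peaks in 2 or more lists, and for the 10 regions with the highest sum of scaled reads. Other genes were given by their number of peaks, and further exceptions are named as such. The sequence of 1 further region chosen by this rule is not reported here.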

Additional observations from a re-analysis of the deposited data

How the results depend on the processing

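Of 60 alternatives that gave a value, 56 lay inside the 95% interval of the value reported or gave the same count, and none reversed a value whose interval excludes 1. Some alternatives left the value unchanged or were further fits with 0 calls, and several intervals are wide, so this tally is a weak check. The 4 that moved were these. With windows of 10 kb on either side of the 5' start alone, the Male Nons ratio of naive to formative density was 0.159 (0.0176 to 0.683). Without Esrrb and Lef1 the Male Nons ratio of reads over input was 1.23 instead of 0.838, on the other side of 1, and both intervals include 1. With scaling by the reads in all listed regions, those called in the female lists included, the female knockdown over Nons ratio was 0.779 instead of 0.436. Without regions also called in a male list, the male ratio was 1.36 (0.938 to 1.98) instead of 1.01. The cause was not tested in any of them. Over its 10 alternatives the Male Nons density ratio stayed below 1, from 0.159 to 0.566, with 0.259 when the gene with the most peaks in each class was left out and 0.461 with lists thinned to the shallowest depth, a value that rests on means of 2.35 naive and 4.31 formative peaks, has no interval and cannot exclude 1. The density of formative genes over all genes in Male Nons rested on Lef1, with 1.44 (0.839 to 2.31) without it instead of 1.98. The Male Smarcc1 knockdown ratio lay between 0.813 and 2.54 and the Female Nons ratio between 0.636 and 1.59, so neither kept a direction. Female Smarcc1 knockdown gave no ratio, and its alternatives were not computed. No paired analysis was possible because each group holds 1 library. Most of the 103 peaks near these genes (72) rested on 10 or fewer reads of their own library, which limits every statement on a single region.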
